A study of Homo sapiens with 12 samples.

Results

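The kallikrein-related peptidases KLK5 to KLK14 are 10 genes of the 58721 in the deposited table, and they were followed here in PDA (pancreatic ductal adenocarcinoma) cells before and after knockdown of GOT1, the cytosolic aspartate transaminase. The members were taken by gene symbol, and the family was picked because KLK6 and KLK7 had been seen to fall in MIA PaCa-2 and KLK10 in Pa-Tu-8902. The dox responses of the members are therefore given as a description, without a test. RNA-seq was made from Pa-Tu-8902 and MIA PaCa-2, established human PDA cell lines that carry a doxycycline (dox)-inducible hairpin against GOT1 (iDox-shGOT1). Each line gave 3 untreated libraries and 3 libraries after 5 days of dox, 12 in all. All 12 libraries carry the hairpin, so dox itself and loss of GOT1 cannot be told apart. Which of the study's hairpins was sequenced is not named, and nothing says that libraries of a group came from separate cultures, so p-values measure only the spread between these libraries, which may be technical.

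Kallikrein-related peptidases are secreted serine proteases with a trypsin-like or chymotrypsin-like cut. They are made as inactive precursors, activate each other in cascades, and are held in check by inhibitors of the SPINK (Kazal type) and serpin families. In skin, KLK5, KLK7 and KLK14 shed surface cells by cutting the proteins of corneodesmosomes. Several members are often raised in epithelial tumours, pancreatic tumours among them, and some can cut protease-activated receptors at the cell surface. Their genes lie side by side in 1 cluster on chromosome 19.

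In GENCODE v44 on GRCh38, the 10 members span 141 kb of chromosome 19, and all 10 lie on the minus strand. The 5 members with enough reads to be tested lie within 76.9 kb, from KLK5 to KLK10, where KLK9, between KLK8 and KLK10, gave almost no reads. KLK6 lies at chr19:50958631-50969673, KLK7 at chr19:50976468-50984099 and KLK10 at chr19:51012739-51020175. The sequence upstream of these genes is shown because they are the members for which the family was picked. RefSeq windows on GRCh38.p14 were found for 9 of the 10 members, and KLK8 is named only. From the 250 bases before a RefSeq start site, the longest stretch that overlaps no annotated exon is printed 5′ to 3′ on the minus strand. Capitals mark the GC box, GGGCGG, on either strand. The stretches are chr19:50969674-50969841 for KLK6, chr19:50984100-50984314 for KLK7 and chr19:51019710-51019819 for KLK10.
KLK6: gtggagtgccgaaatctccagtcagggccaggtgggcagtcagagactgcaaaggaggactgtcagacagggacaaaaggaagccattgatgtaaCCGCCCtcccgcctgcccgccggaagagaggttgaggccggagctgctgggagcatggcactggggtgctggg
KLK7: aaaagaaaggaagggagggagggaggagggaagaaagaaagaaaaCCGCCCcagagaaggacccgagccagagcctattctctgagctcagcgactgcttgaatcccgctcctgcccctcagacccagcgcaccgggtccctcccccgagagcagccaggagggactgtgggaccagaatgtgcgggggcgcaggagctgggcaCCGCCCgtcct
KLK10: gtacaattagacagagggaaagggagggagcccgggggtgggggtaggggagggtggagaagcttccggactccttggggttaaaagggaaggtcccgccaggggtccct
The KLK6 stretch holds 1 GC box, the KLK7 stretch 2 and the KLK10 stretch 0. Over the full 250 bases of the same windows the counts are 3 for KLK6, 2 for KLK7 and 0 for KLK10. Over 35091 RefSeq windows, 42.6% hold a GC box within the 250 bases. Also searched on both strands were the TATA box TATAAA (10.7% of all windows), the AP-1 element TGANTCA (6.57%) and the palindromic steroid receptor element (0.00285%), and none of them was found in the windows of any member. The GC box was the motif found, and the letters alone say nothing on whether a factor binds. The KLK10 window ends at the start of KLK10-202, the leading KLK10 transcript in these libraries. The KLK6 and KLK7 windows used here belong to start sites 619 bases from that of KLK6-202 and 249 bases from that of KLK7-202. KLK7 had other windows that are not printed, and the one at the start site of KLK7-202 held 1 GC box in its 250 bases.

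The libraries held 26226537 to 43406137 expected counts. GOT1 fell by 4.64 (log2 fold change, SE 0.092) with dox in Pa-Tu-8902, from 78.26, 81.49 and 83.38 TPM (a level scaled for transcript length and library total) to 4.51, 3.29 and 3.68 TPM. In MIA PaCa-2 it fell by 4.76 (SE 0.111), from 44.08, 38.9 and 42.69 TPM to 1.68, 1.95 and 1.87 TPM. The epithelial keratins KRT8 and KRT18 were high in both untreated lines, with 3790 and 2680 TPM for Pa-Tu-8902 and 1440 and 964 TPM for MIA PaCa-2. EPCAM, KRT7 and CDH1, which mark ductal epithelium, reached 548, 1280 and 65.3 TPM in Pa-Tu-8902 but 0.14, 0.423 and 0.01 TPM in MIA PaCa-2. KRT19 and MUC1, listed with them, were lower in untreated MIA PaCa-2 but not absent, at 397 and 10 TPM against 1250 and 69.8 TPM. VIM, a mesenchymal marker, showed the opposite order, at 6.46 TPM against 3930 TPM. The mesenchymal marker ZEB1 went with VIM, at 0.63 to 0.88 TPM against 7.71 to 12.37 TPM over the libraries of each line. CDH2, also a mesenchymal marker, did not, at 0.903 TPM in untreated Pa-Tu-8902 against 0.00333 TPM in untreated MIA PaCa-2. The acinar and islet genes CELA3A, CPA1, PRSS1, INS and GCG averaged at most 0.24 TPM in any group, and PTPRC and CD3E, which mark leukocytes, at most 0.127 TPM. The fibroblast gene COL1A1 went from 4.5 ± 1.58 to 19.6 ± 1.9 TPM with dox in Pa-Tu-8902, and PDGFRB from 0.0567 to 0.333 TPM. The endothelial gene VWF went from 0.27 to 0.653 TPM there, while PECAM1, also endothelial, was at 0.14 and 0.147 TPM. KRT19 went from 397 to 130 TPM with dox in MIA PaCa-2 and from 1250 to 1110 TPM in Pa-Tu-8902. MUC1 went from 10 to 6.52 TPM and from 69.8 to 130 TPM, in the same order of lines. The part of these genes in the KLK results was not tested.

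KLK6, a trypsin-like protease, was the most abundant member in MIA PaCa-2. Its levels were 1092.98, 931.36 and 1114.89 TPM untreated and 345.61, 324.48 and 313.27 TPM with dox. All 3 dox libraries lay far below the untreated ones. In bulk RNA, fewer cells that express a gene and less of its RNA per cell cannot be told apart. In normalized counts this was 31120 ± 363 (SD, n = 3) against 9276 ± 343, a log2 fold change of -1.75 (SE 0.06) or 3.35-fold lower. Among all genes ranked by TPM in a library, KLK6 moved from places 141 to 167 to places 412 to 445.

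KLK7, the chymotrypsin-like corneodesmosome protease, was at 124.54, 104.53 and 119.5 TPM in untreated MIA PaCa-2 and at 36.14, 35.22 and 37.59 TPM with dox. The groups did not overlap, and the log2 fold change was -1.70 (SE 0.064), close in size to that of KLK6. KLK8, also called neuropsin, was at 49.45, 58.77 and 52.54 TPM untreated and at 12, 13.72 and 10.52 TPM with dox. Its log2 fold change of -2.32 (SE 0.125) had the largest size of the family in this line, from 436.3 ± 54.6 to 87.73 ± 5.03 normalized counts.

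KLK5, which activates other members of the skin cascade, was at 51.04, 46.9 and 54.28 TPM in untreated MIA PaCa-2 and at 30.31, 28.3 and 29 TPM with dox. KLK10 was at 9.42, 7.92 and 8.26 TPM untreated and at 4.54, 6.16 and 3.99 TPM with dox. Both genes had groups that did not overlap but smaller changes than the 3 genes above, with log2 fold changes of -0.85 (SE 0.068) for KLK5 and -0.92 (SE 0.113) for KLK10. Of the 10 members, 5 had at least 10 counts in at least 3 libraries and entered the edgeR fit. All 5 of these were lower with dox past an adjusted p of 0.01 and a fold of 1.5, beside 12% of all 14589 genes called (4.36% higher and 7.64% lower). Their groups did not overlap, as was so in the lower direction for 27.0% of all genes. Because the family was picked on this contrast, nothing is read from these counts.

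KLK10 was the member with the largest change in Pa-Tu-8902. Its levels were 271.28, 281.52 and 295.1 TPM untreated and 34.05, 37.05 and 35.04 TPM with dox. The 3 dox libraries were tightly grouped and well below the others. Normalized counts were 9481 ± 734 untreated and 1119 ± 102 with dox (SD, n = 3). The log2 fold change was -3.08 (SE 0.079), or 8.46-fold lower. KLK10 moved from places 504 to 555 among all genes to places 3994 to 4360.

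KLK6 was at 301.13, 304.08 and 321.9 TPM in untreated Pa-Tu-8902 and at 104.95, 114.91 and 113.81 TPM with dox. The groups did not overlap, and the log2 fold change was -1.55 (SE 0.071). In this line KLK6 and KLK10 were thus near each other before dox and further apart with dox. KLK6 was the higher of the pair in every library, both untreated and with dox.

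The other 3 members with enough reads were low in Pa-Tu-8902. KLK5 had 22, 48 and 58 counts untreated and 5, 11 and 5 with dox, a log2 fold change of -2.82 (SE 0.417). KLK7 had 13 to 16 counts untreated and 3 to 9 with dox, a log2 fold change of -1.59 (SE 0.437), and it entered the fit only through its untreated libraries. KLK8 was at 15.18, 9.68 and 15.73 TPM untreated and at 9.67, 5.76 and 5.84 TPM with dox, a log2 fold change of -0.79 (SE 0.235), with the groups all but touching. All 5 fitted members had lower normalized counts in every dox library than in any untreated library, as did 29.5% of all 14949 genes. KLK5, KLK6 and KLK10 passed both thresholds, beside 16.3% of all genes called (9.22% higher and 7.12% lower), and KLK7 and KLK8 did not. As in the other line, nothing is read from these counts, since the family was picked on them. KLK7 and KLK8 passed, for 5 of 5, in a fit of all 12 libraries or without dox replicate 1, and with at least 10 counts required in every library KLK5 and KLK7 were not tested and 2 members were called.

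**Figure D1:**
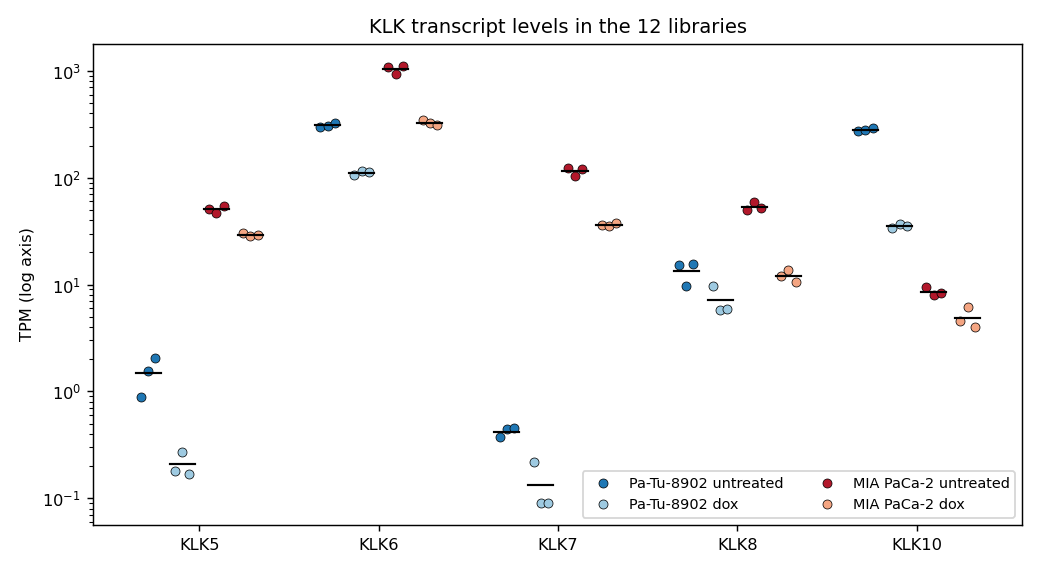
TPM (log axis) of the 5 members with enough reads in each of the 12 libraries. Points are libraries and bars are means of 3. KLK6 is high in both lines, KLK7 and KLK5 are high in MIA PaCa-2, KLK10 is high in Pa-Tu-8902, and each gene is lower with dox in both lines.

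**Figure D2:**
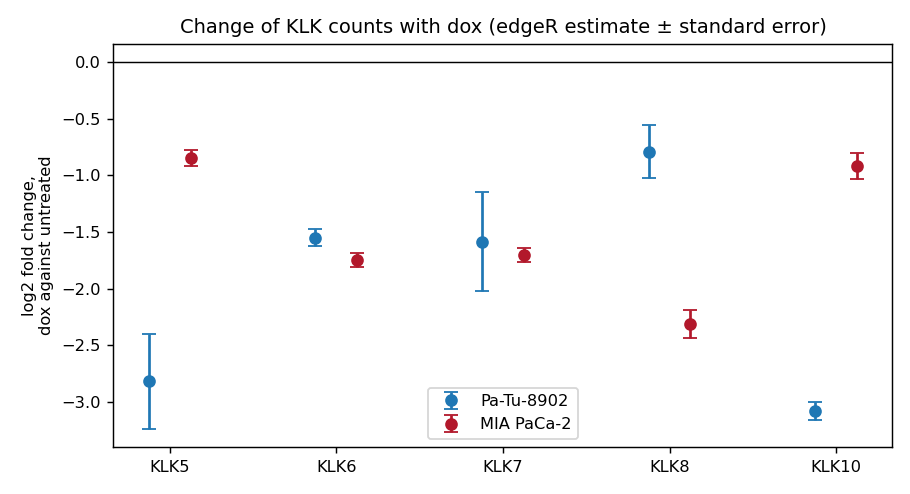
Log2 fold change of dox against untreated libraries for each line, with bars of 1 standard error from the edgeR fit (3 libraries a group). The values for Pa-Tu-8902, then MIA PaCa-2, are -3.08 and -0.92 for KLK10 and -1.55 and -1.75 for KLK6.

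The median log2 fold change of the 5 fitted members was -1.59 (Pa-Tu-8902) and -1.70 (MIA PaCa-2), beside 0.0014 and -0.0089 over all genes tested. In each line this median was the value of KLK7. The family was picked partly on KLK7 in MIA PaCa-2, and KLK7 entered the Pa-Tu-8902 fit only through its untreated libraries. Nothing is therefore read from these medians. The difference in response between the lines was not tested, since the choice of the family rests on it.

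The remaining 5 members were at or near the limit of detection in all 12 libraries. KLK12 had 0 counts in every library, where 3 counts, the upper limit that a count of 0 allows, correspond to 0.0691 to 0.114 CPM (counts scaled to the library total). KLK11, a trypsin-like member, had 0 counts in MIA PaCa-2 and at most 2 per Pa-Tu-8902 library, and KLK9 had at most 2 anywhere. KLK13 had 6, 6 and 7 counts in untreated MIA PaCa-2 and 1, 3 and 3 with dox, and at most 2 in Pa-Tu-8902. KLK14 had 0, 5 and 1 counts in untreated MIA PaCa-2 and 5, 6 and 8 with dox, and 3 to 13 counts in Pa-Tu-8902. Changes in these 5 genes could not be measured at this depth.

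Summed over the 10 members, the family fell from 1328.2, 1150 and 1350 TPM to 428.9, 408.7 and 394.8 TPM in MIA PaCa-2. In Pa-Tu-8902 the sum went from 589.3, 597.5 and 635.5 TPM to 149.7, 158.5 and 155.4 TPM. KLK6 made up 81.0 to 82.6% of the sum in untreated MIA PaCa-2 and 79.3 to 80.6% after dox. For Pa-Tu-8902 its share went from 50.7 to 51.1% untreated to 70.1 to 73.2% with dox, while that of KLK10 went from 46.0 to 47.1% to 22.5 to 23.4%. In MIA PaCa-2 the share of KLK10 was 0.612 to 0.709% untreated and 1.01 to 1.51% after dox. The leading member thus kept most of the sum in MIA PaCa-2, while for Pa-Tu-8902 the sum moved from KLK10 towards KLK6.

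The untreated lines were compared in a fit of all 12 libraries. A gene can be seen to fall only where it has reads, so the levels of KLK6, KLK7 and KLK10 are not independent of how the family was picked and carry no test. KLK7 differed most, at 4347 ± 53.3 normalized counts in MIA PaCa-2 against 15.44 ± 1.85 in Pa-Tu-8902, a log2 difference of 8.13 (SE 0.116). KLK6 was 3.32-fold higher in MIA PaCa-2, a log2 difference of 1.73 (SE 0.071). KLK10 ran the other way, at 282.9 ± 14.4 against 9113 ± 747 normalized counts, a log2 difference of -5.01 (SE 0.091).

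KLK5 and KLK8 were not named in that choice. KLK5 was 33.5-fold higher in MIA PaCa-2 (log2 difference 5.07, SE 0.154, edgeR quasi-likelihood test, Benjamini-Hochberg adjusted p = 2.09e-15). KLK8 was 5.28-fold higher (log2 difference 2.40, SE 0.167, edgeR adjusted p = 3.05e-10). Each was higher in 3 of 3 MIA PaCa-2 libraries than in any untreated Pa-Tu-8902 library. All 5 fitted members were called, 4 higher and 1 lower in MIA PaCa-2, beside 57.5% of the 16544 genes tested (28.2% higher and 29.4% lower). Groups did not overlap for 39.4% of genes higher and 40.7% lower in MIA PaCa-2. With at least 10 counts required in every library, 3 members were left and called.

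By mean TPM the order in untreated MIA PaCa-2 was KLK6 (1050), KLK7 (116), KLK8 (53.6), KLK5 (50.7) and KLK10 (8.53), in which KLK8 and KLK5 overlapped. With dox KLK5 stood above KLK8 in every library, at 29.2 ± 1.02 against 12.1 ± 1.6 TPM (SD, n = 3). In untreated Pa-Tu-8902 the order was KLK6 (309), KLK10 (283), KLK8 (13.5), KLK5 (1.49) and KLK7 (0.42), with no overlap between neighbours. With dox it was KLK6 (111), KLK10 (35.4), KLK8 (7.09), KLK5 (0.207) and KLK7 (0.133), in which KLK5 and KLK7 overlapped.

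The expressed members are neighbours in the cluster, which allows their levels to be set along it. C19orf48, on the KLK1 side of the cluster, had 2648 to 5097 counts per library, and CTU1, a tRNA thiolation enzyme gene beyond KLK14, had 289 to 688. Neither flanking gene was called with dox, with log2 fold changes of -0.54 (SE 0.059) and 0.10 (SE 0.103) in Pa-Tu-8902 and -0.19 (SE 0.08) and 0.50 (SE 0.123) for MIA PaCa-2. C19orf48 in Pa-Tu-8902 was 1.45-fold lower (edgeR adjusted p = 3.05e-05) and missed only the fold threshold. So did CTU1 in MIA PaCa-2, at 1.42-fold higher (edgeR adjusted p = 0.00713). Groups did not overlap in either case. Of the other 9 listed neighbours, KLK1, the tissue kallikrein, had 14 to 25 counts per Pa-Tu-8902 library and at most 1 per MIA PaCa-2 library. It passed the filter on low counts only through Pa-Tu-8902, so its difference between the lines is given without a test. With dox in Pa-Tu-8902 it was not called (19.28 against 21.3 normalized counts). KLK2, KLK3, KLK4, KLK15, KLKP1, ACP4, SHANK1 and SIGLEC9 did not enter any fit.

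**Figure D3:**
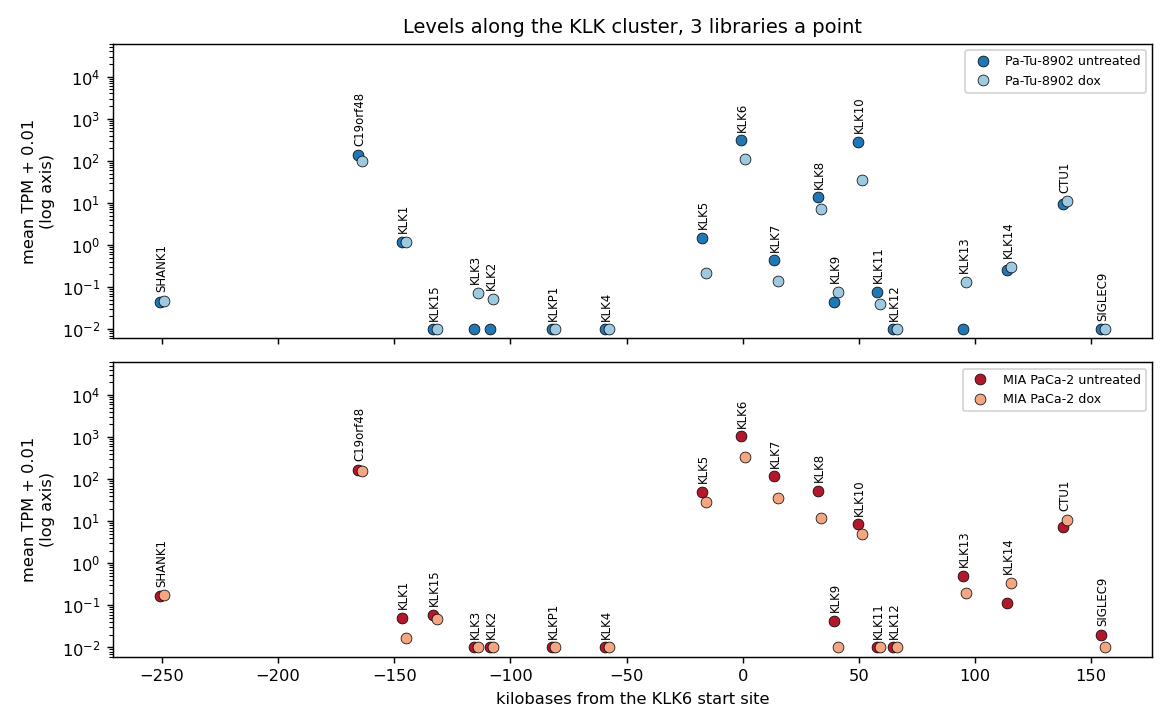
Mean TPM + 0.01 (log axis, 3 libraries a point) of the KLK genes and listed neighbours against distance in kilobases from the KLK6 start site, for each line. KLK5 to KLK8 and KLK10 stand above the silent KLK9, KLK11 and KLK12, and C19orf48 and CTU1 flank the cluster. In Pa-Tu-8902, however, KLK7 (0.42 TPM untreated and 0.133 TPM with dox) and KLK5 with dox (0.207 TPM) are near the floor.

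The antisense gene AC011483.1 runs on the plus strand from within KLK6 past KLK7, KLK8 and KLK9, and the KLK8 and KLK9 gene models overlap. The libraries were strand-specific, but counting was stated with default parameters, so reads of overlapping genes may have been shared. AC011483.1 had 0 to 11 counts per library, and KLK9 0 to 2.

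Transcript shares were not used to pick the family. KLK6 was spread over KLK6-202, KLK6-203, KLK6-201 and KLK6-204. KLK6-202 held 41.5, 42.7 and 42.1% of KLK6 TPM in untreated Pa-Tu-8902 and 34.0, 37.0 and 30.8% with dox. In MIA PaCa-2 it held 29.9, 28.5 and 30.5% untreated and 37.1, 38.9 and 31.5% with dox. The share differed by -8.17 percentage points with dox in the former line and by 6.19 points in the latter, without overlap in either. Between the untreated lines the difference was -12.47 points (MIA PaCa-2 minus Pa-Tu-8902), again without overlap.

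KLK7-202 held 54.2 ± 1.98% of KLK7 TPM in untreated MIA PaCa-2 and 59.1 ± 3.08% with dox (SD, n = 3), without overlap. KLK10-202 held 95.4 ± 1.01% of KLK10 TPM in untreated Pa-Tu-8902 and 94.7 ± 2.13% with dox, which overlapped. In untreated MIA PaCa-2 KLK10-202 held 89.1 ± 4.71%, below every untreated Pa-Tu-8902 library, and 83.4 ± 9.04% with dox, which overlapped. KLK5-203 and KLK8-203, the leading transcripts of KLK5 and KLK8, had overlapping shares in each comparison made. For 11 comparisons, the two-sided exact permutation test of 3 against 3 libraries cannot go below p = 0.1, which the 5 without overlap reached (Benjamini-Hochberg adjusted p = 0.22, exact permutation test), so none passed. These shares are RSEM estimates from reads that transcripts share.

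**Figure D4:**
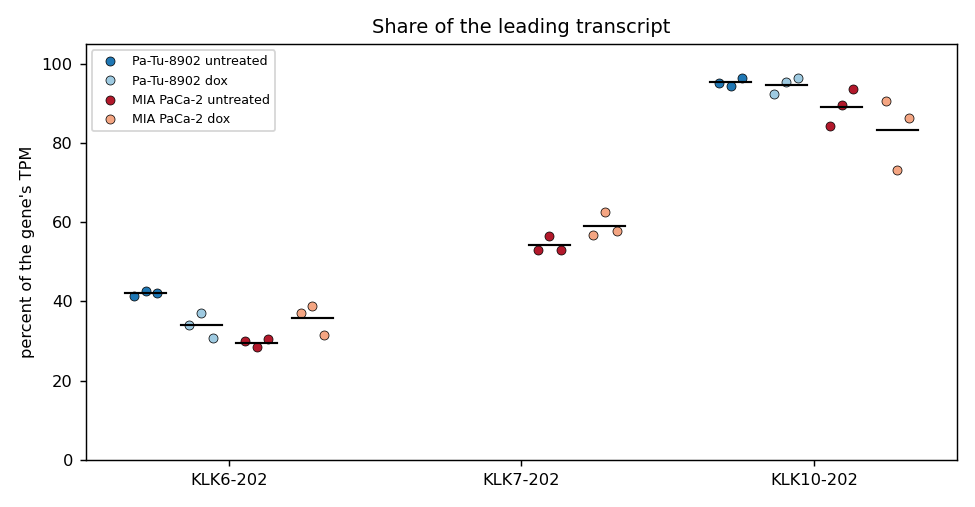
Percent of the gene's TPM held by KLK6-202, KLK7-202 and KLK10-202 in each library, with bars at the mean of 3. KLK7 is shown for MIA PaCa-2 alone. The KLK6-202 share is lower with dox in Pa-Tu-8902 and higher with dox in MIA PaCa-2.

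The first list was drawn up as inhibitors of kallikreins and related proteases. Whether each listed product, SERPINB5 among them, inhibits a KLK protease was not tested. The counts for each list stand beside 9.22% of all genes called higher and 7.12% lower with dox (Pa-Tu-8902), 4.36% and 7.64% (MIA PaCa-2), and 28.2% and 29.4% between the untreated lines. Of 19 listed inhibitors, 8 were tested in Pa-Tu-8902, of which 1 rose and 3 fell with dox, and 5 in MIA PaCa-2, of which 3 fell. The median log2 fold change was -0.23 and -0.70. SERPINA3, a serpin that blocks chymotrypsin-like proteases, rose by a log2 fold change of 1.07 in Pa-Tu-8902, from 99.36 to 209.6 normalized counts (edgeR adjusted p = 0.000175). In MIA PaCa-2 SERPINA3 fell by 2.61, from 17330 to 2830 normalized counts (edgeR adjusted p = 2.28e-09). SERPINA5, the protein C inhibitor, fell by 2.26 in MIA PaCa-2, and SERPINB6 by 0.70.

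In Pa-Tu-8902 SERPINB5, or maspin, fell by 2.04 (log2) and SERPINF2 by 0.69. SPINK5, the inhibitor of skin kallikreins, and SPINK6 were not detectable at a level that could be tested, with group means of at most 0.07 TPM for SPINK5 and 0.113 TPM for SPINK6. Between the untreated lines 2 genes of this list were called higher and 6 lower in MIA PaCa-2. Of these, SPINT1, SERPINB5, SERPINA1 and SERPINF2 passed the filter on low counts only through Pa-Tu-8902, and SERPINA5 only through MIA PaCa-2. Nothing is therefore read from the direction of these genes. SPINT1, which inhibits membrane serine proteases, had 5117 normalized counts in Pa-Tu-8902 against 1.724 in MIA PaCa-2, SERPINA1 had 2459 against 11.28, and SERPINB5 had 812.9 against 0.7004. SERPINA3 had 95.54 against 18090.

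Of 23 listed substrates and receptors, 9 were tested in Pa-Tu-8902 (1 rose and 3 fell, median -0.40) and 8 in MIA PaCa-2 (1 rose and 2 fell, median -0.40). The desmosomal cadherin DSG2 fell in both lines, by 0.88 (Pa-Tu-8902) and 0.89 (MIA PaCa-2) on the log2 scale. DSC2 fell by 1.47 in Pa-Tu-8902, and CDH1, or E-cadherin, rose by 0.86 there. In MIA PaCa-2 the adhesion molecule L1CAM fell by 1.70, and PLAUR, the urokinase receptor, rose by 0.81.

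The list holds the 4 protease-activated receptors. F2RL1, which encodes PAR2, fell in Pa-Tu-8902 by 0.69 (log2) and was at 40.73 against 20.25 normalized counts, untreated against dox, in MIA PaCa-2, where it was not called. F2R, which encodes PAR1, was not called in either line, with log2 fold changes of 0.09 and -0.21. Between the untreated lines F2R was higher in MIA PaCa-2 (log2 difference 4.47, edgeR adjusted p = 3.74e-19) and F2RL1 lower (-6.03, edgeR adjusted p = 2.37e-17). F2RL2 had 0 counts in all Pa-Tu-8902 libraries and 107 normalized counts in untreated MIA PaCa-2, and F2RL3 averaged at most 0.07 TPM in any group. Of the 11 list genes tested between the lines 4 were called higher and 7 lower, among the latter CDH1, DSC2 and IGFBP3. CDH1, DSC2 and IGFBP3 passed the filter on low counts only through Pa-Tu-8902, and F2RL2 and L1CAM only through MIA PaCa-2. Nothing is therefore read from the direction of these genes.

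Of 16 membrane-anchored serine proteases, 8 were tested in Pa-Tu-8902, of which 3 rose and 3 fell (median 0.08). TMPRSS2 rose by 1.45, TMPRSS13 by 1.27 and PRSS8, or prostasin, by 0.62 (log2), and TMPRSS4 fell by 1.10. TMPRSS11E had 19.21 normalized counts untreated and 0.999 with dox. It passed the filter on low counts only through its untreated libraries, so nothing is read from its direction. ST14, or matriptase, had a log2 fold change of 0.46 and missed the fold threshold. In MIA PaCa-2, 2 were tested (median 0.72) and neither was called. All 8 that entered the fit of the untreated lines were lower in MIA PaCa-2, but except for PRSS27 they were at 0 to 10 counts there and passed the filter through Pa-Tu-8902, so the direction was largely set by the filter. ST14 was at 317 TPM in untreated Pa-Tu-8902 against 0.0767 TPM, and PRSS22 and PRSS8 had 0 counts in untreated MIA PaCa-2.

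Of 11 steroid and retinoid receptors, some of which are known to act on KLK genes in other tissues, 7 were tested in Pa-Tu-8902 (2 rose and 1 fell, median 0.16) and 5 in MIA PaCa-2 (0 rose and 1 fell, median -0.23). RARG, a retinoic acid receptor, fell in both, by 0.70 and 0.74 (log2). NR3C1, the glucocorticoid receptor, rose by 0.79 in Pa-Tu-8902, and ESR1 went from 5.526 to 20.15 normalized counts there. ESR1 passed the filter on low counts only through its dox libraries, so nothing is read from its direction. VDR, NR3C2, ESR1 and RARG were among 5 of 7 called lower in untreated MIA PaCa-2. NR3C2 had at most 1 count per MIA PaCa-2 library and ESR1 had 0. Both passed the filter only through Pa-Tu-8902, so nothing is read from their direction.

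Of 27 listed names for cornified epithelium, 26 were in the table. Of these, 17 were tested in Pa-Tu-8902 (4 rose and 2 fell, median 0.60) and 11 in MIA PaCa-2 (1 rose and 2 fell, median -0.21). In Pa-Tu-8902 GRHL3 went from 8.596 to 47.22 and TP63 from 7.061 to 26.08 normalized counts, EHF rose by 1.07 (log2) and SFN fell by 1.01. GRHL3 and TP63 passed the filter on low counts through their dox libraries, so nothing is read from their direction. In MIA PaCa-2 KLF4 rose by 0.82, EHF fell by 0.77 and ELF3 by 0.73. Between the untreated lines 2 were called higher and 10 lower of 17, with GRHL2, IVL and OVOL1 near 0 in MIA PaCa-2 and TP63 at 6.786 normalized counts in Pa-Tu-8902. Over the 5 lists and the neighbours together, 23 of 52 genes were called with dox in Pa-Tu-8902 (16.3% of all genes tested), 10 of 33 in MIA PaCa-2 (12% of all) and 45 of 55 between the untreated lines (57.5% of all). The lists were not tested as sets, and their counts, which include ESR1, GRHL3, TP63 and TMPRSS11E, are a description. Many listed genes entered the fit of the untreated lines through 1 line alone, and with at least 10 counts in every library 17 were called.

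The genes most like each leading member were found by the root mean square difference of centred log2 CPM over the 12 libraries, among 16543 genes. KLK6 was closest to CSGALNACT2, a chondroitin sulfate enzyme, and MISP3, each at 0.195, followed by DLK2 at 0.302. CSGALNACT2 had log2 fold changes with dox of -1.66 and -1.46, and MISP3 of -1.55 and -1.77, in Pa-Tu-8902 and MIA PaCa-2. Within the family KLK6 was nearest to KLK8, at 0.393. KLK7 was closest to COL6A3 at 0.568, LINC01224 at 0.659 and PARM1 at 0.665, and KLK10 to AL354719.2 at 0.496 and, further off, AC130456.4 at 0.57. KLK7 has few reads in Pa-Tu-8902, and with log2(TPM + 0.1) none of the 3 nearest genes of KLK7 or of KLK10 was kept.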

How the data were processed

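Expected counts, FPKM and TPM for 58721 genes, and the same for transcripts, were deposited by the authors. Reads were trimmed (Trimmomatic 0.39), aligned with STAR 2.5.2a as called by RSEM 1.3.1 and counted on GRCh38 (hg38) and GENCODE v29, with default parameters per the methods. FPKM was not used here. Effective gene lengths, also deposited, served as an alternative. Of the expected counts 5.34% were not whole, and all were rounded for testing.

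Here TMM normalization and the quasi-likelihood test of edgeR 4.0.16 (R 4.3.3) were applied, in each line for dox and over all 12 libraries for the untreated lines, after a filter of 10 or more counts in 3 or more libraries. A call needed an adjusted p (Benjamini-Hochberg) under 0.01 and a fold of 1.5 or more. SE is the log2 fold change over the square root of F. Normalized counts are scaled to the mean effective library size. Scripts were tested on simulated data. Library totals were 26226537 to 43406137, and limits from a count of 0 cover counting error only. Alternatives were DESeq2 1.42.0, its size factors, other filters, effective lengths, a replicate block, pooled fits and leaving out each library. Replicates of a group differed beyond sampling noise. Positions are from GENCODE v44.

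The labels give dox as 1 µM/mL and the methods as 1 µg/mL. The members, lists and tests were chosen with earlier results of these data known. The genes named are the 10 members, GOT1, the listed neighbours, up to 4 called genes with the largest change for each list and comparison, chosen receptors, inhibitors and proteases, the 3 genes most like KLK6, KLK7 and KLK10, and cell type markers. Some genes that this rule picks are left out.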

Additional observations from a re-analysis of the deposited data

Results flagged for a closer look

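Some of the results checked ran in opposite directions with dox in the lines, with every library of a line on the same side. The differences between the lines were not tested, and the share of all genes that do so was not counted. Genes outside that check, MUC1 and KRT18 among them, did the same. KLK6-202 changed its share of KLK6 TPM by -8.17 percentage points in Pa-Tu-8902 and by 6.19 in MIA PaCa-2. Neither change passed (exact permutation test, adjusted p = 0.22 for each). The inhibitor SERPINA3 had log2 fold changes of 1.07 (Pa-Tu-8902) and -2.61 (MIA PaCa-2). PLAUR, the urokinase receptor, had -0.4 and 0.81. Of the transcription factors, EHF had 1.07 and -0.77, ELF3 0.57 and -0.73, and NR3C1 0.79 and -0.24, in the same order of lines. NR3C1 in MIA PaCa-2, and PLAUR and ELF3 in Pa-Tu-8902, did not pass both thresholds.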

How the results depend on the processing

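Each log2 fold change of KLK5, KLK6, KLK7, KLK8, KLK10 and GOT1 kept its direction under every alternative run. In Pa-Tu-8902 the members called went from 3 to 5 with all 12 libraries in 1 fit and from 3 to 5 without dox replicate 1 (range 3 to 5 over libraries left out), because KLK7 (-1.59 and -2.09) and KLK8 (-0.79 and -0.94) then passed. KLK8 also passed with no filter. With at least 10 counts in every library 2 members were called there, since KLK5 and KLK7 were not tested (range 2 to 5 over all alternatives). Between the untreated lines, at least 10 counts in every library left 3 members called of 5, 17 listed genes of 45 and 6244 of 9519 genes, since fewer genes were tested. With no filter KLK13 was called too.

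Of the 9 genes most like KLK6, KLK7 and KLK10, 3 were kept with a prior count of 2, 2 with log2(TPM + 0.1), and 6 to 9 with a library left out. CSGALNACT2 and MISP3 were kept under both scales. Leaving out libraries for transcript shares and likeness was chosen after seeing the data. Some small differences in share changed sign, in percentage points, and the cause was not tested. KLK5-203 in MIA PaCa-2 ranged from -2.68 to 3.41 with a library left out (1.05 without untreated replicate 1, 3.41 without dox replicate 2). KLK8-203 with dox in Pa-Tu-8902 was -0.91 from expected counts and ranged from -5.57 to 11.47 (-5.57 without untreated replicate 1, -2.85 without dox replicate 2). KLK8-203 in MIA PaCa-2 ranged from -5.67 to 0.5, the latter without dox replicate 1, and KLK10-202 in Pa-Tu-8902 from -1.5 to 0.55, the latter without dox replicate 1. KLK8-203 between the untreated lines ranged from -8.58 to 8.46 (0.89 without MIA PaCa-2 replicate 2, 8.46 and 0.07 without Pa-Tu-8902 replicates 2 and 3).

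Same-numbered libraries did not deviate together (residual correlations -0.0947 to 0.121), so the numbers were not taken to pair them. With a replicate block the members called were 3 for Pa-Tu-8902, 5 for MIA PaCa-2 and 5 between the untreated lines.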
